A study of Caenorhabditis elegans with 2 samples.

Results

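The astacin metalloproteases of Caenorhabditis elegans carry the gene name nas- (nematode astacin) and a number. Genes were taken by that name from the protein-coding genes of Ensembl release 115 (assembly WBcel235, the same sequence as ce11), leaving out nas-6, nas-36 and nas-37. This gave 34 gene entries of 19973 nuclear protein-coding genes, from 37 entries named nas- in all. The 34 entries hold 33 distinct names, because both Y19D10A.6 and F56A4.1 are called nas-2. Reproducible NHR-25 peaks stood at 9 of the 34 genes, namely nas-4, nas-7, nas-10, nas-12, nas-13, nas-27, nas-29, nas-30 and nas-38, where 21.5% of all genes had such a peak by the same rule. Of the 14 astacin genes on chromosome V none had one, where 14.6% of all genes on V did.

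Astacins are secreted zinc-dependent proteases that are made as inactive precursors and cut proteins outside the cell. In this worm, members of the family are known for shedding the old cuticle at the molts, for processing cuticle collagens, for hatching from the eggshell and for shaping the cuticular grinder of the pharynx. NHR-25 is a nuclear receptor of the SF-1 and FTZ-F1 family with known roles in the epidermis and in molting, and its family binds DNA at a half-site with the core CAAGGTC or CAAGGCC.

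ChIP-seq of NHR-25 was done on whole L3 larvae of strain OP33 (unc-119(ed3) III; wgIs33). This transgenic line carries an NHR-25 that ends in a GFP and FLAG tag, and its genotype lists no nhr-25 mutation. Both samples carried the tagged receptor and form 1 group, biological replicates 1 and 2 by their labels, with age given as unknown. Since whole worms were used, the tissue behind a peak cannot be told, and no second condition exists for a test. Signal is the authors' height per peak, on an unstated scale, and the depth of each sample is unknown.

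A reproducible peak here is one of the 5017 that passed the authors' cutoff on the irreproducible discovery rate (IDR), with pooled signals from 42.2 to 919.6 and a median of 74.3. Those 5017 peaks were the highest of 30000 pooled regions, and each replicate list also held 30000 regions, background included. A gene was counted when a summit, the highest point of a peak, lay in its promoter window, which runs from 2000 bp before the annotated 5′ end to 200 bp after it, or inside the gene. Positions below are distances from that 5′ end along the gene's own strand, negative when upstream.

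The sequences below lie under the tallest promoter summit of nas-7, nas-10, nas-12, nas-27, nas-29 and nas-38. The results on nas-7, nas-10 and nas-27 draw on the letters shown. Each runs 60 bases to either side of the summit, 5′ to 3′ on the strand of the named gene, from the RefSeq genome sequence of WBcel235. Capitals mark the half-site core CAAGGCC in nas-7, the bases of an annotated tRNA gene in nas-10, and the matches to TTATCA, the reverse complement of the GATA-type element TGATAA, in nas-27. The other stretches hold no capitals. They lie at chrII:7404244-7404364 (minus strand) for nas-7, chrX:10963819-10963939 (minus) for nas-10, chrIV:10222148-10222268 (plus) for nas-12, chrII:1181152-1181272 (minus) for nas-27, chrII:5142065-5142185 (minus) for nas-29 and chrX:557915-558035 (plus) for nas-38.
nas-7: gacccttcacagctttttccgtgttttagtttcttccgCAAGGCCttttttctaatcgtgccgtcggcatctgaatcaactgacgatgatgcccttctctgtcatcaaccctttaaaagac
nas-10: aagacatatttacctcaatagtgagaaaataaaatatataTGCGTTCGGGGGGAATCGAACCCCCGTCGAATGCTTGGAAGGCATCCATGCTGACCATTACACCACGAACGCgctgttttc
nas-12: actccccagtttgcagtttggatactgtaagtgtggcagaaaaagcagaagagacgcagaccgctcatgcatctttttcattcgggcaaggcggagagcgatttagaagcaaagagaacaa
nas-27: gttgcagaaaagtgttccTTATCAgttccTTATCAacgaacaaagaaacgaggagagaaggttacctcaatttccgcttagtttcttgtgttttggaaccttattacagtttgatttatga
nas-29: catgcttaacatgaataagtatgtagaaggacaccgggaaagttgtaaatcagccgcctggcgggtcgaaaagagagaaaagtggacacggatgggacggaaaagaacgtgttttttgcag
nas-38: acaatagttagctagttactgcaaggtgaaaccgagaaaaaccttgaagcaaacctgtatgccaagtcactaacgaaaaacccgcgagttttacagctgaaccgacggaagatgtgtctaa

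A promoter summit was present at 9 of 34 astacin genes, which is 26.5% (exact Clopper-Pearson 95% interval 12.9 to 44.4). Over all nuclear protein-coding genes the share was 18.4%, which lies inside that interval, so the family as a whole was not set apart from other genes by this count. Summits inside the gene were found at nas-4, nas-13 and nas-30, 3 of 34 (8.82%, exact interval 1.86 to 23.7), against 5.77% of all genes. With both kinds counted the same 9 genes were counted, against 21.5% of all genes. Intervals here cover the counting of genes only. Some summits fall in the promoter windows of several genes, and the count given to the nearest 5′ end alone was 8 of 34, without nas-12, against 12.5% of all genes.

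**Figure D1:**
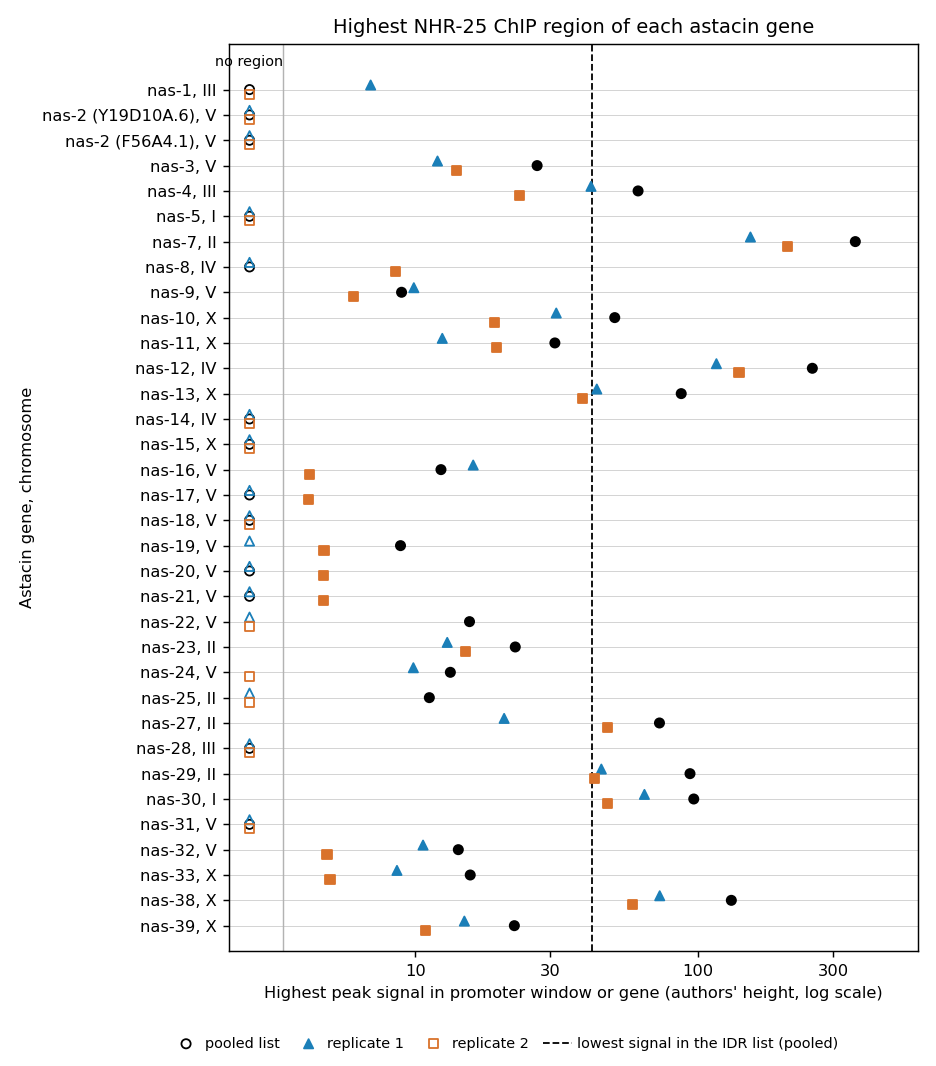
Highest region in the promoter window or gene of each of the 34 astacin genes (rows, with chromosome), as the authors' peak height on a log axis in the pooled list (circles), replicate 1 (triangles) and replicate 2 (squares), with open symbols at the left where a list held no region. The dashed line is the lowest pooled signal of the IDR list, 42.2; 9 genes have a circle to its right, led by nas-7 at 359.0 and nas-12 at 253.1.

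The 14 summits of these 9 genes were of ordinary height for the list. Their median pooled signal was 77.5 against 74.3 for all 5017, and 7 of the 14 stood in its higher part, the 2508 peaks of greatest signal. The upper end belonged to nas-7 and nas-12, which ranked 58 and 193 by pooled signal, followed by nas-38 at 951. The lower end was a second nas-4 summit with 43.1, just inside the list's minimum of 42.2, and among the 25 genes without a summit the highest region was one at nas-11 with 31.2.

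nas-7 carried the tallest peak of the group. NAS-7 is known, with NAS-6, for a role in forming the pharyngeal grinder. The gene lies on the minus strand of chromosome II, from 7400545 to 7402725, and the peak spans 7404075 to 7404467, with its summit at −1579 in intergenic DNA. Signals were 359.0 pooled, 153.0 in replicate 1 and 206.3 in replicate 2 (mean of the replicates 179.6 ± 37.7, SD, n = 2), with ranks of 58, 81 and 53. Both replicates thus placed it among their highest regions, and their summits fell on the same base. No other gene's promoter window held this summit, and the upstream neighbour srd-55, named as a chemoreceptor gene, begins 5766 bp from nas-7 on the opposite strand.

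The core CAAGGCC printed in capitals began 22 bases upstream of the summit in the nas-7 sequence. It was the single match to CAAGGTC or CAAGGCC, searched on both strands within 100 bp, among the 14 astacin summits (7.14%), where 6.80% of all IDR summits had one in windows of the same length. The longer half-site, with a pyrimidine before the core and a purine after it, was found at 0 of the 14 and at 3.45% of all summits. Searching the whole peak interval added a core at nas-30, giving 2 of 14 (14.3%) against 8.27% of all peaks. A match describes the letters only, and 0 to 2 matches among 14 summits are too few to compare these shares with those of the list.

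A second nas-7 peak, from 7403389 to 7403738 with its summit at −839, was much less even. It had 65.9 pooled, 60.7 in replicate 1 and 7.13 in replicate 2, where its ranks were 2964, 1042 and 16827. The log2 ratio of replicate 2 to replicate 1 was −3.09, and among the 4688 IDR peaks matched in both replicates to within 100 bp only 2 were as low or lower, itself included. This peak therefore rests on replicate 1, whereas the farther one was the taller of both in either replicate.

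nas-12 had the next tallest peak, though the gene is not the nearest to it. The gene is on the plus strand of IV from 10224023 to 10226387, and the peak, from 10222129 to 10222290, has its summit at −1815. Signals were 253.1 pooled, 116.0 in replicate 1 and 139.4 in replicate 2 (127.7 ± 16.6, SD, n = 2), with ranks of 193, 195 and 196. The rank of this peak was therefore almost the same in both samples. The same summit lay 331 bp upstream of C24F3.2 and 921 bp upstream of tram-1, which encodes a TRAM-type membrane protein of the translocon, and within the annotated non-coding RNA gene C24F3.7. C24F3.2 ends 277 bp before nas-12, so that whole gene lies between the summit and nas-12. Which of these genes the peak belongs to cannot be told apart from its position.

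The summits of nas-38 and nas-29 lay close to the 5′ ends of these genes. NAS-38 is known for a part in the sleep-like quiescence that accompanies each molt. Its gene, on the plus strand of X from 558157 to 563708, had a summit at −182 in a peak from 557953 to 558051, with signals of 130.9 pooled, 73.1 in replicate 1 and 58.7 in replicate 2 (65.9 ± 10.2, SD, n = 2). That summit was also 680 bp upstream of hlh-19, a gene of the basic helix-loop-helix transcription factor family that runs the opposite way. nas-29, on the minus strand of II from 5138519 to 5142036, had a summit at −89 in a peak from 5141950 to 5142299. It reached 93.6 pooled, 45.5 in replicate 1 and 43.0 in replicate 2 (44.3 ± 1.72, SD, n = 2), so both samples gave nearly the same height. This summit fell within the non-coding RNA gene F58A6.12 and 794 bp upstream of F58A6.1.

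The nas-10 summit lay inside a tRNA gene. The gene nas-10 is on the minus strand of X from 10960914 to 10963503, and its peak runs from 10963704 to 10964053 with the summit at −376. The tRNA gene, WBGene00014436, covers 10963828 to 10963899 on the opposite strand, and the non-coding RNA gene K09C8.11 also covers the summit. The 72 capital bases printed above are this tRNA gene read on the strand of nas-10. Signals were 50.7 pooled, 31.5 in replicate 1 and 19.1 in replicate 2 (25.3 ± 8.76, SD, n = 2), among the lower values of the group. No other astacin summit lay in a tRNA gene, and 59 of the 5017 IDR summits (1.18%) did. Without replicate 1, that is in the 5017 highest regions of replicate 2, nas-10 had no summit, since its rank there was 6040.

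nas-27 had the farthest promoter summit, at −1889, in a long stretch without protein-coding genes. The gene is on the minus strand of II from 1175925 to 1179323, its upstream neighbour F53A10.2 begins 18050 bp away, and the peak spans 1181037 to 1181386. Signals were 73.0 pooled, 20.6 in replicate 1 and 47.8 in replicate 2 (34.2 ± 19.2, SD, n = 2), so that replicate 2 carried most of the height (log2 ratio 1.21). Without replicate 2 the gene had no summit, its rank in replicate 1 being 5408. The TTATCA matches in its sequence began 42 and 31 bases upstream of the summit. An element TGATAA on either strand was found within 100 bp of 2 of the 14 astacin summits, this one and the summit at −1791 of nas-30 (14.3%), and of 14.9% of all IDR summits.

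nas-30 was the gene with the most summits, 4 in all, on the plus strand of chromosome I from 938483 to 947710. The one at −1791 had 96.5 pooled, 64.6 in replicate 1 and 41.3 in replicate 2, and the one at +50, in the 5′ UTR, had 82.1, 31.6 and 47.9 in the same order. Of these, the upstream one was higher in replicate 1 and the one at the 5′ end higher in replicate 2. Inside the gene, a summit in a coding exon at +2080 had 54.4 pooled, 21.9 and 27.9, and one in an intron at +3331 had 61.1, 34.8 and 24.5. No other protein-coding gene had its promoter window over any of these summits, and the gene and its window held 15 regions of the pooled list, more than any other astacin gene here.

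nas-13 and nas-4 had summits just downstream of their 5′ ends. For nas-13, on the minus strand of X from 15425099 to 15428253, the summit was at +87 in the 5′ UTR, in a peak from 15427991 to 15428340. Its signal was 87.1 pooled, 43.8 in replicate 1 and 39.1 in replicate 2 (41.4 ± 3.38, SD, n = 2), again nearly level. For nas-4, on the minus strand of III from 6411578 to 6415656, an intronic summit at +85 in a peak from 6415396 to 6415745 had 61.3 pooled and 41.8 in replicate 1. Replicate 2 had no summit within 100 bp of it, and its nearest one, 140 bp away, had 23.3. This was the only astacin summit without a match in both samples at 100 bp, and at 200 bp all 14 had one.

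The other nas-4 summit, at +3980 in a peak from 6411501 to 6411850, lay in the 3′ UTR of nas-4 and at the same time in the 5′ UTR of C05D11.5, whose 5′ end was the nearest, 338 bp away. It had 43.1 pooled, 25.7 in replicate 1 and 11.9 in replicate 2, the lowest pooled signal among the astacin summits.

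**Figure D2:**
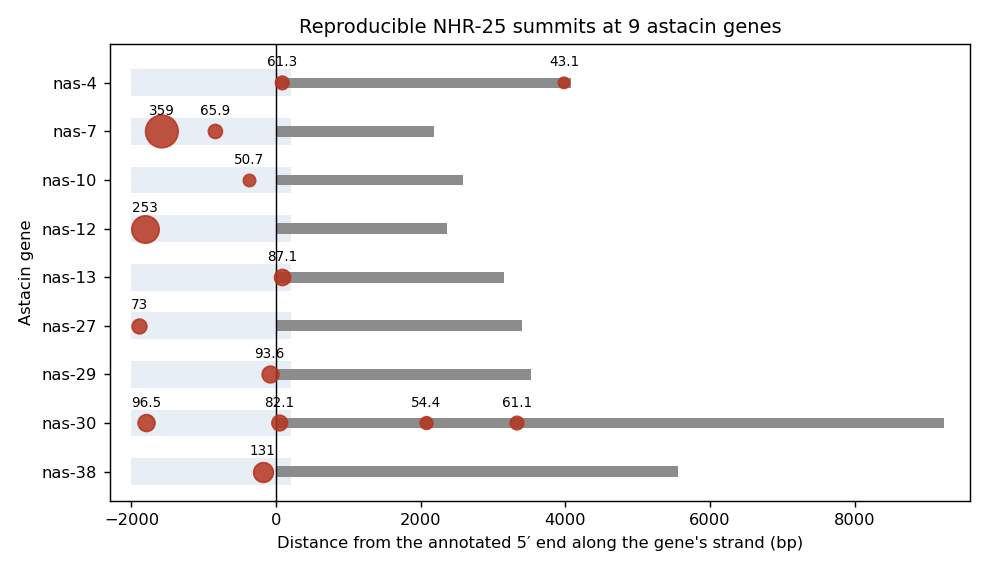
Reproducible NHR-25 summits at the 9 astacin genes that had one, as distance in bp from the annotated 5′ end along each gene's strand; grey bars are the genes, pale boxes the promoter windows, and circles the summits, with area rising with the pooled signal printed above each. The farthest upstream summits, at −1579 to −1889, are those of nas-7, nas-12, nas-27 and nas-30, and 1 summit each of nas-4, nas-13, nas-29, nas-30 and nas-38 stands within 200 bp of the 5′ end.

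The astacin peaks matched between replicates about as often as other peaks. Of the 14 astacin summits, 13 had a counterpart in each replicate list at most 100 bp away (92.9%), against 93.4% of all IDR peaks. Both replicates ranked 8 of the 14 (57.1%) among their 5017 highest regions, against 69.5% of all IDR peaks. The log2 ratio of replicate 2 over replicate 1 had, for the 13 matched summits, a median of −0.17 (SD 1.05, from −3.09 to 1.21), and over all 4688 matched peaks a median of 0.11 (SD 0.73). Replicate 2 was the higher sample at 5 of the 13, among them the tallest summits of nas-7 and nas-12. GC content within 100 bp of a summit was also alike, with a median of 42.0% at astacin summits and 41.8% at all.

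**Figure D3:**
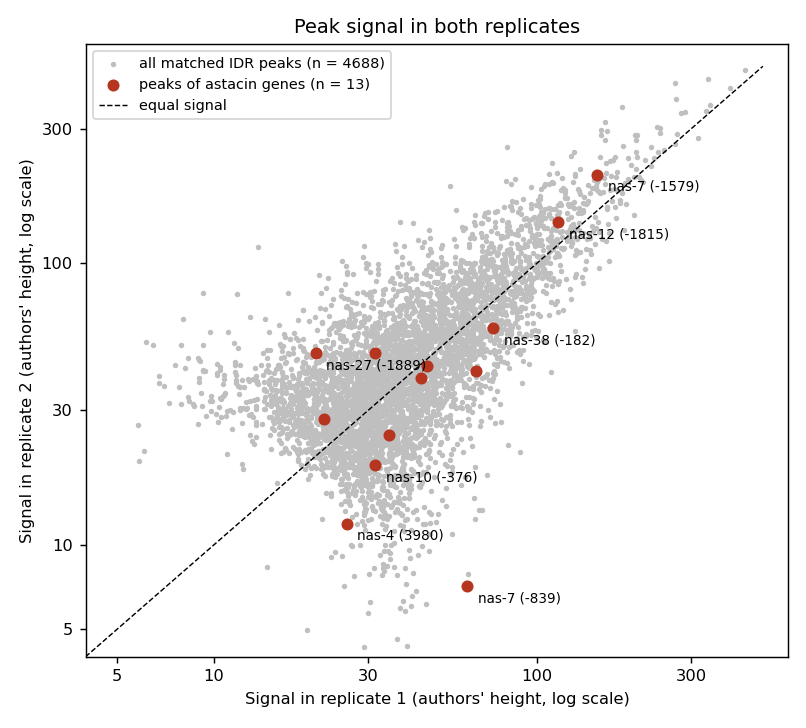
Peak signal in replicate 1 (horizontal) and replicate 2 (vertical), authors' heights on log axes, for the 4688 IDR peaks matched within 100 bp in each replicate (grey) and the 13 of astacin genes (red); the dashed line is equal signal. The nas-7 summit at −1579 and the nas-12 summit lie at the upper end near the line, and the nas-7 summit at −839 lies far under it, at 60.7 and 7.13.

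The remaining 25 astacin genes had no reproducible summit. The pooled list placed no region in the window or gene of 13 of them. For 8, namely both nas-2 entries, nas-5, nas-14, nas-15, nas-18, nas-28 and nas-31, none of the pooled or replicate lists did. The other 12 had pooled regions of 8.88 to 31.2 at their highest, all under the list minimum of 42.2. Such weak regions are common: 21 of 34 astacin genes and 59.0% of all genes had some region of the pooled list in the window or gene.

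The highest of these weak regions was at nas-11, at −1051, with 31.2 pooled, 11.95 in replicate 1 and 19.4 in replicate 2 and a pooled rank of 6787. nas-3 had 26.97 at +1009 in a coding exon, with 14.0 in replicate 2 and no summit within 100 bp in replicate 1. nas-23 had 22.6 at −213, with 7.59 in replicate 1 and no summit within 100 bp in replicate 2. The highest replicate 2 region of nas-23 had 15.1 at −315. For nas-39, the relative of the vertebrate BMP1 and fly tolloid proteases, an intronic region at +8174 had 22.4, 14.9 and 4.49. nas-33 had 15.7 at −13, with no summit within 100 bp in either replicate. Of these genes, nas-11 and nas-39 alone had a match within 100 bp in both replicates.

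The 2 entries named nas-2 are copies of each other on chromosome V, at 2358801 to 2360543 and 2466762 to 2468504, with starts 107961 bp apart. They are the same length, 1743 bp, and differed at 0 positions within the gene and 0 in the 2000 bp upstream. Reads from them cannot be placed on one copy, and the authors' treatment of such reads is unstated in the sources used here, so the lack of a region at nas-2 is uncertain.

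Astacin genes with a promoter summit were on every chromosome but V. Per chromosome they numbered 1 of 2 on I, 3 of 5 on II, 1 of 3 on III, 1 of 3 on IV, 0 of 14 on V and 3 of 7 on X. A count of 0 of 14 allows a share of up to 23.2% (upper bound of the exact 95% interval), which takes in that of all genes on V. That interval treats the 14 as separate genes. They include both nas-2 entries, which are identical copies, and nas-20 and nas-21, which have 254 bp between their 5′ ends. Over all genes the share was 12.9% on V, the lowest, and from 16.3% on IV to 24.5% on III elsewhere. Among the genes off chromosome V, 9 of 20 astacins had one (45.0%), against 20.2% of all 14979 genes there. This split was made after the values had been seen, and no test was run on it. On V, 7 of the 14 astacin genes had some pooled region, against 47.6% of all genes on that chromosome.

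Of the 14 astacin genes on V, 7 lie in one region. nas-16, nas-17, nas-18, nas-19, nas-20, nas-21 and nas-22 lie between 11392320 and 11478007, a span of 85688 bp. Of these 7 genes 0 had a reproducible summit and 3 had a pooled region, against 14.6% and 47.6% of all genes on V. By the annotated coding sequence, nas-21 was the only one of the 34 whose protein lacked the zinc-binding signature of the family, which the other 33 hold.

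**Figure D4:**
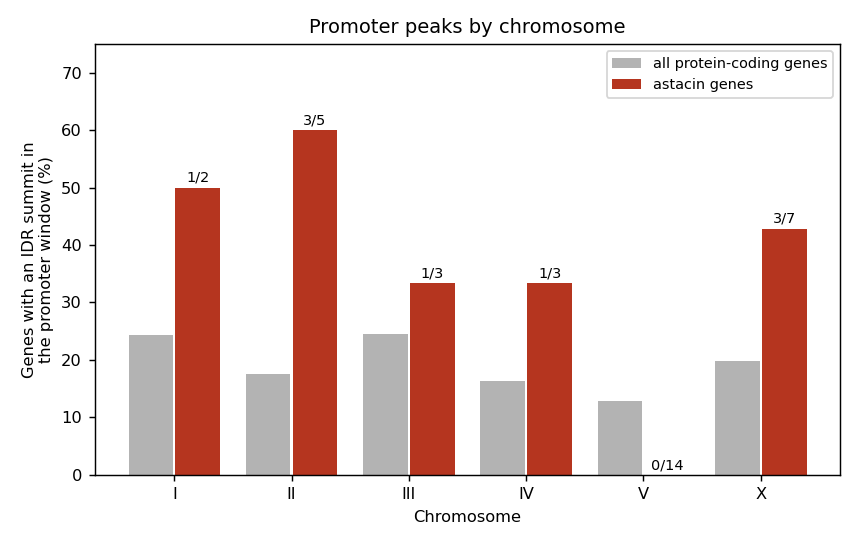
Percentage of genes whose promoter window held an IDR summit, by chromosome, for all nuclear protein-coding genes (grey bars) and the astacin genes (red bars, with the counts above). Chromosome V has 0 of 14 astacin genes with a summit, and II has 3 of 5.

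Over all 34 genes, those with a summit had higher median gene and protein lengths. The median gene length was 3399 bp with a summit (2181 to 9228) and 2257 bp without (1189 to 14407), where all genes had a median of 2027 bp. Median protein lengths were 450 and 399 residues. The ranges overlapped, and the longest gene of all, nas-39, had no summit. All 14 astacin genes on chromosome V are among those without a summit. Off V, most genes without a summit were longer than 2257 bp, though most were shorter than 3399 bp, the median with a summit. The difference in median gene length was thus smaller off V. Most proteins of these genes without a summit were longer than 450 residues. The higher protein median with a summit therefore did not hold off V.

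Similar proteins did not always have similar peaks. NAS-10 and NAS-11, with 52.4% identical residues over the shorter protein, differed in that nas-10 alone had a reproducible summit. The same held for nas-7 against nas-8 (42.4%), nas-13 against nas-15 (44.2%) and nas-29 against nas-23 (40.0%). NAS-4 and NAS-13, 43.8% identical, both had a summit within 100 bp of the 5′ end. The pairs nas-19 with nas-24 (73.5%) and nas-16 with nas-18 (61.3%) had none on either side.

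Among the astacins outside the list of 34, 3 of 6 had a reproducible summit, against 21.5% of all genes. NAS-36, a protease of the molt and the closest relative of NAS-38 (35.98% identical), had one at −100 with 86.2 pooled, 46.0 in replicate 1 and 37.6 in replicate 2. dpy-31, which encodes a protease that trims cuticle procollagens, had one at −665 with 129.5, 57.8 and 71.5, and one in an intron with 84.4, 27.8 and 55.2. The tallest summit of toh-1, the closest relative of nas-30 (34.8%), was in an intron, with 112.5, 63.4 and 51.9. Its promoter summit at −231 had 53.2 pooled and 22.7 in replicate 1 with no match in replicate 2, and a summit in a coding exon with 49.99, 28.9 and 27.3 was also in the promoter window of xbx-5. No reproducible summit stood at nas-37, the other molting astacin (highest pooled region 12.4), at nas-6 (12.2) or at hch-1, a hatching protease gene (no pooled region). Thus of the grinder pair nas-7 alone had a reproducible peak, and of the molting pair nas-36 alone.

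Other families of secreted or membrane metalloproteases had summits at 10 of 38 genes (26.3%), near the share of the astacins and not far from the 21.5% of all genes. By family these were 3 of 6 matrix metalloproteases (zmp genes), 3 of 5 ADAMTS-type genes (adt genes, gon-1 and mig-17), 3 of 4 ADAM-type genes and 1 of 23 neprilysin-type genes (nep-26). The highest promoter signals were 176.8 at adm-2, 138.4 at adt-2, 95.9 at zmp-5 and 84.0 at sup-17, the ADAM10-type protease known for Notch receptor cleavage. All were under those of nas-7 and nas-12, though the nas-12 summit also lies in the promoter windows of C24F3.2 and tram-1. The last list held 4 genes for inhibitors of extracellular proteases or proteins with inhibitor domains, cri-2, timp-1, mig-6 and bli-5. Of these only cri-2, of the TIMP type, had a summit, against 21.5% of all genes. It lay at −358 with 61.6 pooled, 28.6 in replicate 1 and 32.4 in replicate 2, and also in the promoter window of cest-17.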

How the data were processed

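NHR-25 ChIP-seq peak lists on ce11 were used from 2 samples of 1 group; ce10 lists were not used. Per the deposited index text, the authors called regions on each replicate and on pooled replicates with a control, and made the IDR list from these 3 lists. No aligner or caller is named in the sources used here. The signal is the authors' height per region, as deposited, and may rise with depth, which is unknown. The deposited −log10 q-value was at its maximum for 71.8% of IDR peaks, so signal was used for ranks. The members and lists were chosen with earlier results of these data known. Genes came from Ensembl release 115, sequences and coding sequences from RefSeq. Summits were counted with Python 3.11.15, pandas 2.3.3, numpy 2.4.6 and scipy 1.17.1 (exact 95% intervals), proteins were aligned with Biopython 1.88, and the counting was tested on simulated data. No region was identical between the replicates. Named genes were all members with a summit, the next 5 by pooled region, genes sharing a summit, the other astacins, the 4 other metalloproteases of highest promoter signal, and nas-21, whose annotated protein lacks the signature. Alternatives were other windows, nearest-end counting, the upper part of the IDR list, single replicates, the pooled list and peak overlap.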

Additional observations from a re-analysis of the deposited data

How the results depend on the processing

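The astacin counts stayed within 1.5 times the reported ones under each alternative but the pooled list, background included, where 18 genes had a promoter region, 15 a region inside the gene and 21 either (48.9%, 38.1% and 59.0% of all genes). Windows of 1000 and 500 bp gave 7 and 6 promoter genes, losing nas-12 and nas-27, then also nas-7 (14.0% and 11.2% of all genes); the upper part of the IDR list gave 6, without nas-4, nas-10 and nas-27 (10.6% of all genes). Leaving out replicate 1 or 2 gave 8 promoter genes (17.8% and 18.0% of all genes) and 8 genes by either rule (21.0% and 21.1%). Summits inside the gene were then at 2 and 3 genes (6.14% and 5.80% of all genes). Half-site cores numbered 2 over whole peaks and 0 with the extended half-site; the median summit signal was 42.8 in replicate 1 and 41.3 in replicate 2, against 77.5 pooled. Alternatives for the other lists were chosen after seeing the data. In the pooled list 5 other astacins, 18 other metalloproteases and 3 inhibitor genes had a region, against 59.0% of all genes. Without a replicate these counts were 3, 8 to 10, and 1 to 2 (2 without replicate 1, mig-6 added). In the upper part of the IDR list 0 inhibitor genes remained, against 12.4% of all genes by either rule. The cause of these shifts was not tested. In all, 37 of 49 alternatives over 9 results kept their value within these bounds. No paired analysis was possible because there is a single group. Depth is unknown, so a gene without a peak was not detected here and is not shown to be unbound.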
